A study of Mus musculus with 63 samples.

Results

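Newborn neurons (NBN) and basal progenitors (BP) of the dorsal cortex of E17.5 mouse embryos were compared gene by gene, in 4 NBN and 4 BP libraries out of the 63 RNA-seq libraries of the series. The 8 libraries were chosen by their labelled cell type and day, with no measured value, and all genes of the table were considered. Both groups came from embryos on a C57Bl/6 background in which Ski, a co-repressor of TGF-beta signalling, was knocked out, and both came from cells sorted for the Tbr2::GFP reporter, in which green fluorescent protein follows Tbr2 (gene symbol Eomes). All 8 libraries are labelled female. The wider series holds 19 groups of neural stem cells (NSC), BP and NBN over several days. No wild type library was among those analysed, so each value below describes Ski knock-out cells. The step that divided reporter-positive cells into BP and NBN, and whether a library came from 1 embryo or a pool, are not stated in the labels or protocols. The p-values and standard errors rest on the spread between libraries within all 19 groups of the series, not within these 8 libraries alone. That spread may be technical.

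In the developing cortex, radial glial stem cells line the ventricle and give rise to basal progenitors, which leave the ventricular surface, switch on Tbr2 and usually divide once more to give neurons. The proneural factors Neurog2 and Neurod act in that step, and Notch signals between neighbouring cells hold it back. Newborn projection neurons then stop dividing, migrate outward, extend an axon and take on the identity of a deep or an upper cortical layer. Fluorescent protein outlasts the gene that drives it, so a Tbr2 reporter can label young neurons after Tbr2 transcripts have declined.

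Values are in TPM, a transcript level per unit of transcript length, scaled to the same total in every library. They stand in the order of libraries 1 to 4 of each group, and replicate numbers have no order. Differences are NBN minus BP on the log2(TPM + 1) scale, given in parentheses after the levels with their standard error (SE). This scale understates the change of genes with low TPM. A gene was called higher or lower in NBN where the Benjamini-Hochberg adjusted p of limma, over 15231 genes tested, was under 0.05 and the log2 difference was at least 1 in size. Read counts were not used here, so the depth behind each value is unknown. In bulk samples, fewer cells of a type and less RNA per cell cannot be told apart.

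Several libraries stood apart from others of their group. Xist, the RNA of the inactive X chromosome, was at 234 TPM in NBN 1 and 223 TPM in BP 1 and at most 4.47 TPM in the other 6 libraries. The 4 Y-linked genes together were at 0.374 TPM in NBN 1 and 0.212 TPM in BP 1 and at 46.3 to 134 TPM in those 6, against the female label. The same pair had the highest mitochondrial level, with 100526 TPM in NBN 1 and 107632 TPM in BP 1 against 48468 to 70173 TPM in the rest. In NBN 2 and BP 2 the rank correlation of level with transcript length was -0.011 and -0.026, against 0.011 to 0.072 in the others. BP 3 carried 176 TPM of endothelial and pericyte marker RNA, against 24.9 to 39.8 TPM in the other BP libraries. Without BP 3, 844 genes were called higher and 1064 lower in NBN.

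Markers of 11 other cell types and states were checked, and microglia and macrophage genes moved with the groups. Of 15 such genes, 14 were called higher in NBN and 0 lower, and their summed level was 61.2, 141, 77.7 and 199 TPM in NBN and 16.1, 10.9, 14.8 and 17.98 TPM in BP. The complement gene C1qa was at 6.25, 14.501, 9.22 and 28.3 TPM in NBN and 2.33, 0.200, 0.555 and 0.502 TPM in BP (log2 difference 2.95 ± 0.51, adjusted p = 4.71e-06). All of the NBN sums lay above all of the BP sums, and none of the 15 genes was at 0 throughout a group. The median difference of this list was 2.16. With a pseudocount of 5 in place of 1, 7 of the 15 were called. Radial glia markers summed to 727, 734, 901 and 984 TPM in NBN and 1149, 1122, 1334 and 1098 TPM in BP, and these groups did not overlap either, with 2 of 21 genes called higher and 4 lower. Globin and other erythroid genes summed to 601, 2892, 1393 and 3741 TPM in NBN and 226, 1662, 794 and 1373 TPM in BP, with overlapping groups, and 0 of 10 tested were called. With a block for replicate number, 0 were called in the fit of all libraries and 4 were higher in that of the 8 libraries alone. Among endothelial (13 tested), meningeal (11) and choroid plexus genes (7), 0 were called higher and 1, 1 and 0 were called lower. The endothelial number lower was 2 without BP 1 or NBN 1, 4 without BP 2 and 3 without BP 4, and the median of that list was -0.53, against 0.19 without BP 3. A fit with library weights, whose estimation did not fully converge, gave 1 endothelial gene higher and 7 lower. For choroid plexus genes 1 was called lower without BP 1 or NBN 4. The part of these cells in the differences below was not tested.

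**Figure D1:**
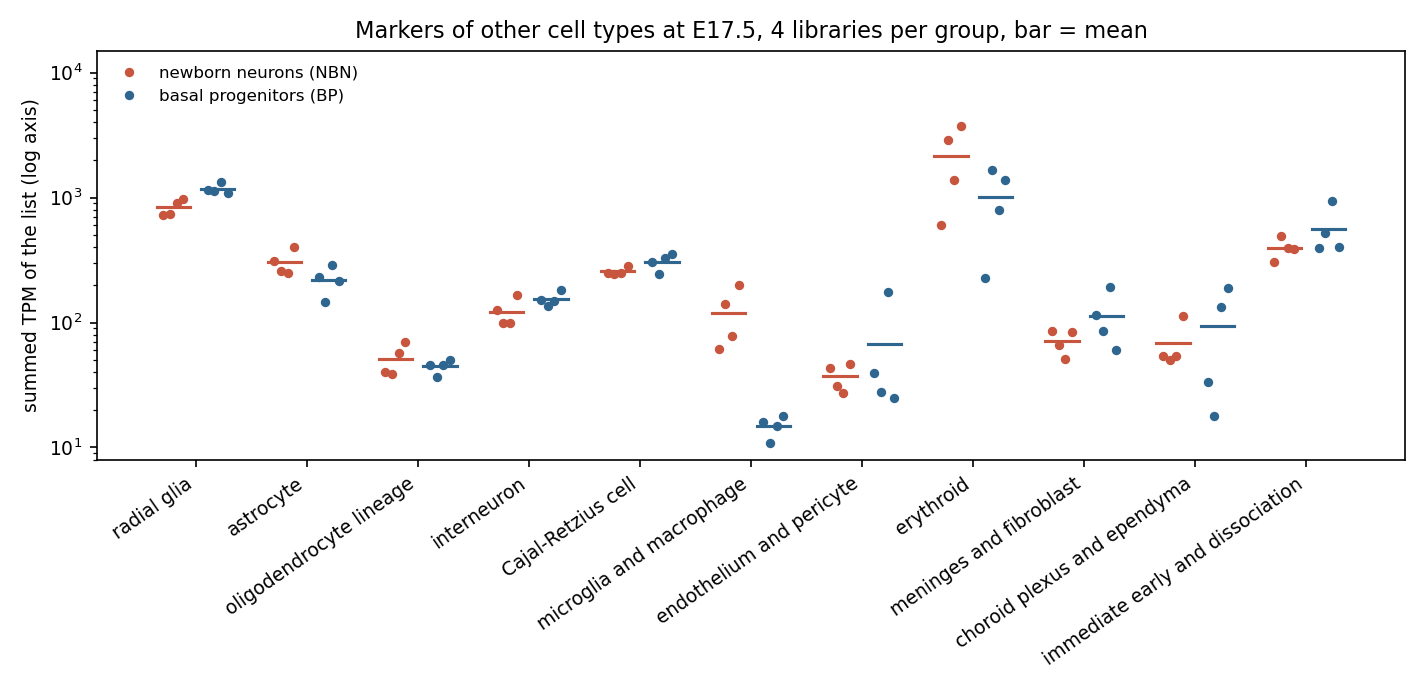
Summed TPM (log axis) of 11 marker lists in each E17.5 library, with newborn neurons to the left of basal progenitors, 1 point for each library and a bar at the mean. Microglia genes lie between 61.2 and 199 TPM in NBN, above 10.9 to 17.98 TPM in BP, and the endothelial sum of BP 3 (176 TPM) stands above the other BP libraries.

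Of the 15231 genes, 838 (5.5%) were called higher and 1035 (6.8%) lower in NBN, together 12.3%. These shares are the background for every count of listed genes at E17.5. The 4 NBN libraries lay wholly above the 4 BP libraries for 2335 genes (15.3%) and wholly below them for 3316 (21.8%). The median difference over all genes was -0.12. Scaling by median-of-ratios brought it to -0.01 and gave 1002 genes higher and 845 lower, and quantile scaling brought it to -0.02 and gave 1031 and 826, so that the share of calls that were higher was 54.3% and 55.5% in place of 44.7%.

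The 10 genes with the largest excess in NBN had differences between 3.80 and 4.85. Gucy1a3, a subunit of the nitric oxide receptor guanylate cyclase, was at 139, 67.8, 143 and 95.8 TPM in NBN and 2.32, 2.40, 3.05 and 3.18 TPM in BP (4.85 ± 0.37, adjusted p = 7.61e-15). The Src-like adaptor Sla was at 299, 262, 289.8 and 281 TPM in NBN and 8.40, 13.2, 8.67 and 9.10 TPM in BP (4.73 ± 0.40, adjusted p = 1.92e-13). For the neurotensin receptor Ntsr1, known from layer 6 neurons, NBN held 59.5, 41.0, 61.5 and 39.6 TPM and BP 0.809, 1.13, 1.03 and 0.956 TPM (4.67 ± 0.34, adjusted p = 3.31e-15). The BP libraries were all within a few TPM of 0 for Gucy1a3 and Ntsr1, and Sla was almost level over the 4 NBN libraries. Mef2c, a transcription factor of maturing excitatory neurons, was at 314, 108, 257 and 172 TPM in NBN and 6.29, 3.89, 9.99 and 8.72 TPM in BP (4.65 ± 0.45, adjusted p = 9.14e-12). Neuropeptide Y, Npy, was at 176, 55.4, 202 and 104 TPM in NBN and 4.94, 4.89, 2.38 and 5.38 TPM in BP (4.53 ± 0.48, adjusted p = 1.19e-10). Both varied several-fold among the NBN libraries, with NBN 2 the lowest, and neither overlapped with BP. The other 5 genes with the largest excess were the dynein intermediate chain Dync1i1 (4.62 ± 0.37), the secreted factor Ccbe1 (4.52 ± 0.34), Ndrg1 (4.44 ± 0.42), Mlip (3.92 ± 0.28) and the synaptic adhesion gene Lrfn5 (3.80 ± 0.41).

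**Figure D2:**
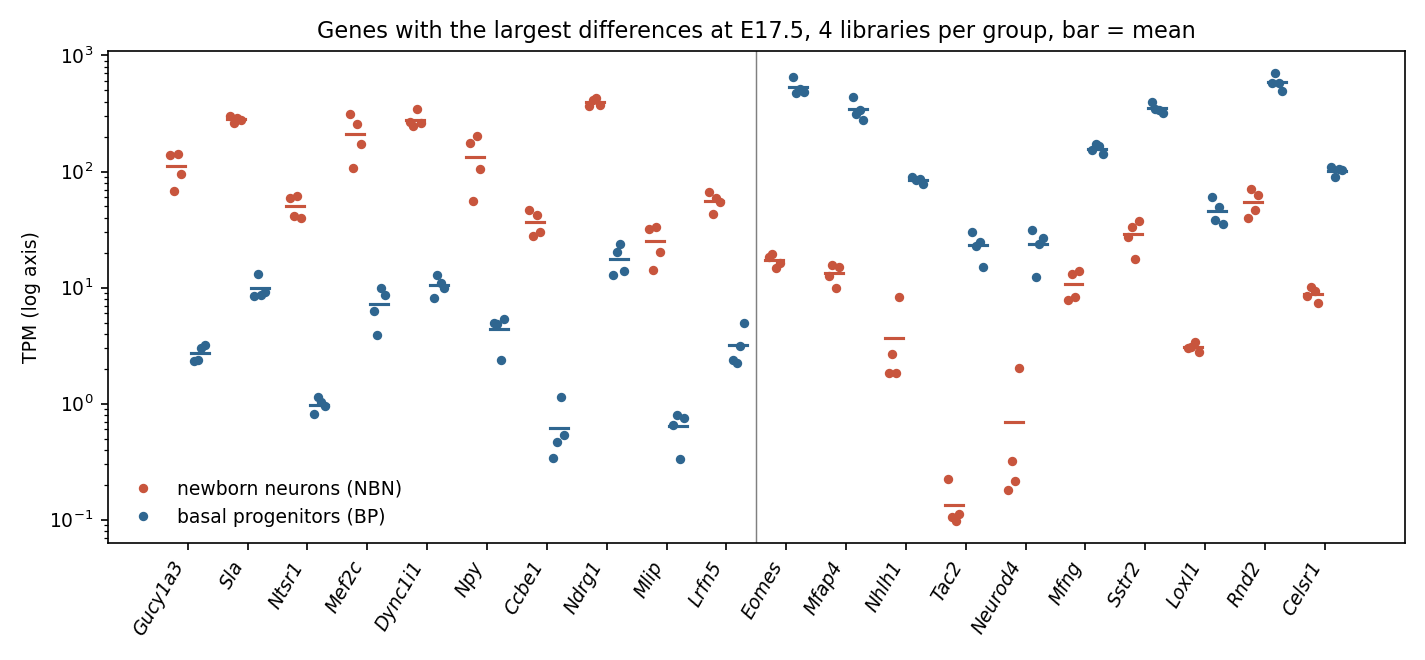
TPM (log axis) in each E17.5 library of the 10 genes with the largest excess in newborn neurons and the 10 with the largest deficit, 1 point for each library and a bar at the mean, with newborn neurons left of basal progenitors. For Eomes the NBN libraries lie at 14.8 to 19.5 TPM and the BP libraries at 472 to 656 TPM, and for Sla they lie at 262 to 299 and 8.40 to 13.2 TPM.

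Most listed genes of basal progenitors and of the Tbr2 cascade fell in NBN. Of 20 listed, 17 were called lower and 0 higher (1 under median-of-ratios scaling), against 6.8% and 5.5% of all genes, and the median difference was -2.93. The list was chosen with earlier results of these data known and includes Eomes, so the count is a description and not a test. Eomes itself was at 18.47, 19.5, 14.8 and 16.2 TPM in NBN and 656, 472, 513 and 480.3 TPM in BP (-4.86 ± 0.37, adjusted p = 1.13e-14). Its reporter served to sort both groups, so this difference is a check of the labels and not a finding. NSC libraries of the same day, sorted by another reporter, averaged 164.9 TPM. They also averaged 157 TPM of Sla and 112 TPM of Mef2c, so NSC averages are no reference free of RNA of genes high in NBN. The proneural factor Neurog2 was at 27.8, 34.6, 27.2 and 30.6 TPM in NBN and 241, 257, 267 and 246 TPM in BP (-3.04 ± 0.26, adjusted p = 3.34e-13). Nhlh1, a basic helix-loop-helix factor of cells leaving the cycle, was at 1.84, 2.68, 1.85 and 8.22 TPM in NBN and 89.8, 84.2, 86.0 and 78.0 TPM in BP (-4.39 ± 0.31, adjusted p = 6.1e-16). NBN 4 was the highest NBN library for Nhlh1 and also for Neurod4, a related factor, which was at 0.181, 0.322, 0.218 and 2.03 TPM in NBN and 31.3, 12.4, 23.8 and 26.6 TPM in BP (-3.91 ± 0.32). Each of these groups was separate.

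Other genes of the same list reach into matrix, signalling and migration. The microfibril protein Mfap4 was at 12.6, 15.52, 9.82 and 15.1 TPM in NBN and 443, 313, 338 and 280.3 TPM in BP (-4.59 ± 0.23, adjusted p = 6.67e-21). Tac2, which codes for neurokinin B, was at 0.223, 0.106, 0.0973 and 0.112 TPM in NBN and 30.2, 23.0, 24.7 and 15.1 TPM in BP (-4.38 ± 0.24, adjusted p = 1.96e-19). The somatostatin receptor Sstr2 was at 27.2, 33.3, 17.47 and 37.2 TPM in NBN and 397, 347, 339.6 and 317 TPM in BP (-3.61 ± 0.32). All 3 were low in every NBN library, and Tac2 was near 0 there. Rnd2, a small GTPase that Neurog2 controls in migrating neurons, was at 39.6, 70.3, 46.4 and 62.7 TPM in NBN and 579, 704, 579.9 and 494 TPM in BP (-3.43 ± 0.26, adjusted p = 1.15e-14). Insm1, a zinc finger factor that promotes basal progenitors, was at -1.86 ± 0.18 and Neurod1 at -2.34 ± 0.28. The 3 members not called were Hes6 (-0.68 ± 0.15), the Notch ligand Dll1 (-0.50 ± 0.15) and the cell cycle inhibitor Cdkn1c (0.90 ± 0.26). Outside the list, the planar polarity cadherin Celsr1 (-3.40 ± 0.26) and the lysyl oxidase Loxl1 (-3.50 ± 0.34) were among the 10 genes with the largest deficit in NBN.

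Genes of the Notch pathway were called in both directions. Of 24 tested, 2 were called higher and 8 lower, against 5.5% and 6.8% of all genes, and the median difference was -0.50. Without BP 1, BP 2, NBN 3 or NBN 4, 1 was called higher. Among ligands, Jag2 was at 28.6, 28.6, 23.0 and 22.6 TPM in NBN and 8.33, 9.16, 10.4 and 9.12 TPM in BP (1.38 ± 0.24, adjusted p = 6.25e-06), while Dll3 (-1.46 ± 0.24) and Dll4 (-1.70 ± 0.17) were lower. The receptor Notch1 was at 7.15, 6.75, 8.50 and 6.93 TPM in NBN and 32.4, 28.4, 38.9 and 38.2 TPM in BP (-2.08 ± 0.21, adjusted p = 3.84e-11). Its fringe modifier Mfng, a sugar transferase, was at 7.79, 13.1, 8.34 and 13.8 TPM in NBN and 152, 171, 164.7 and 142 TPM in BP (-3.79 ± 0.21, adjusted p = 1.27e-19). Jag2 was higher in every NBN library, and Notch1 and Mfng were lower in every one. In the nuclear complex, the DNA-binding partner Rbpj (-1.11 ± 0.15) and the co-activator Maml3 (-2.03 ± 0.21) were lower. The effector gene Hes5 was low in both groups, at 2.14, 4.51, 4.42 and 5.28 TPM in NBN and 2.78, 4.35, 4.23 and 3.08 TPM in BP (0.11 ± 0.39, adjusted p = 0.845), where NSC averaged 34.3 TPM, and Hes1 gave 0.02 ± 0.46.

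Of 21 radial glia genes, 2 were called higher (1 without BP 2 or NBN 3) and 4 lower, against 5.5% and 6.8% of all genes. The median was -0.22, and 0.05 without NBN 1. The 4 lower ones include the stem cell transcription factors Pax6, Emx2 and Sox2. Pax6 was at 14.0, 14.0, 13.1 and 31.6 TPM in NBN and 108, 72.0, 96.7 and 129 TPM in BP (-2.48 ± 0.27, adjusted p = 1.37e-10). Emx2 was at 14.47, 14.4, 13.6 and 12.1 TPM in NBN and 66.3, 55.0, 63.8 and 52.4 TPM in BP (-2.04 ± 0.19, adjusted p = 3.93e-12), and Sox2 gave -1.76 ± 0.24. NBN 4 had the highest Pax6 of the NBN libraries but stayed below every BP library. Ptprz1, a receptor phosphatase also made by radial glia, went the other way, at 208, 117, 145.5 and 145.5 TPM in NBN and 52.5, 28.6, 55.7 and 61.2 TPM in BP (1.64 ± 0.29, adjusted p = 7.03e-06). The intermediate filament genes Nes (-0.29 ± 0.21) and Vim (-0.84 ± 0.21) were not called.

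In the lists for G1, S and G2 and M phase no gene was called higher in NBN, except 1 of the G1 list under median-of-ratios scaling. All 24 genes of G2 and M phase were called lower, and their median difference was -2.36. Their summed level was 149, 166, 176 and 243 TPM in NBN and 881, 763, 1055 and 1380.3 TPM in BP. Top2a, the topoisomerase that untangles chromosomes, was at 11.47, 7.26, 11.3 and 17.0 TPM in NBN and 83.5, 45.0, 103 and 129 TPM in BP (-2.79 ± 0.37, adjusted p = 2.76e-08). The proliferation marker Mki67 was at 5.90, 3.01, 3.61 and 5.17 TPM in NBN and 49.0, 11.1, 40.4 and 68.1 TPM in BP (-2.78 ± 0.50, adjusted p = 1.16e-05). The spindle motor Kif11 was at 4.37, 2.88, 4.14 and 6.14 TPM in NBN and 30.5, 12.7, 39.0 and 54.8 TPM in BP (-2.57 ± 0.40, adjusted p = 8.45e-07). BP 2 was the lowest and BP 4 the highest BP library for all 3, and no NBN library reached BP 2. NBN 4 had the highest summed level of the NBN libraries, and none of the 24 genes was at 0 throughout NBN.

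Of 23 S phase genes, 13 were called lower and 0 higher (median -1.26). The licensing inhibitor geminin, Gmnn, was at 2.09, 5.18, 4.15 and 6.68 TPM in NBN and 13.8, 19.8, 21.1 and 29.1 TPM in BP (-2.02 ± 0.31, adjusted p = 4.65e-07). The helicase subunit Mcm2 was at 12.7, 17.3, 17.3 and 18.4 TPM in NBN and 57.1, 59.6, 64.7 and 75.9 TPM in BP (-1.91 ± 0.19, adjusted p = 1.9e-11). No NBN library reached a BP library in either gene. Mcm7 (-0.74 ± 0.14) and Pcna (-0.75 ± 0.17) did not reach a difference of 1. Of 19 genes that govern G1, 10 were called lower and 0 higher (median -1.05). The kinase gene Cdk6 was at 1.77, 2.34, 2.25 and 2.01 TPM in NBN and 23.2, 11.4, 23.9 and 29.4 TPM in BP (-2.82 ± 0.36, adjusted p = 8.75e-09). Cyclin D2, Ccnd2, was at 26.1, 24.7, 26.7 and 38.0 TPM in NBN and 150.1, 123, 163 and 201 TPM in BP (-2.42 ± 0.25, adjusted p = 3.02e-11). The inhibitor Cdkn2c was also lower, at 1.91, 3.44, 3.53 and 4.28 TPM in NBN and 19.6, 19.9, 23.3 and 29.7 TPM in BP (-2.50 ± 0.25). Neither group overlapped for these 3 genes. Cyclin D1, Ccnd1 (-0.62 ± 0.22), and the inhibitor Cdkn1a (-0.36 ± 0.31) were not called, and p27, Cdkn1b, was lower in NBN (-1.05 ± 0.14).

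**Figure D3:**
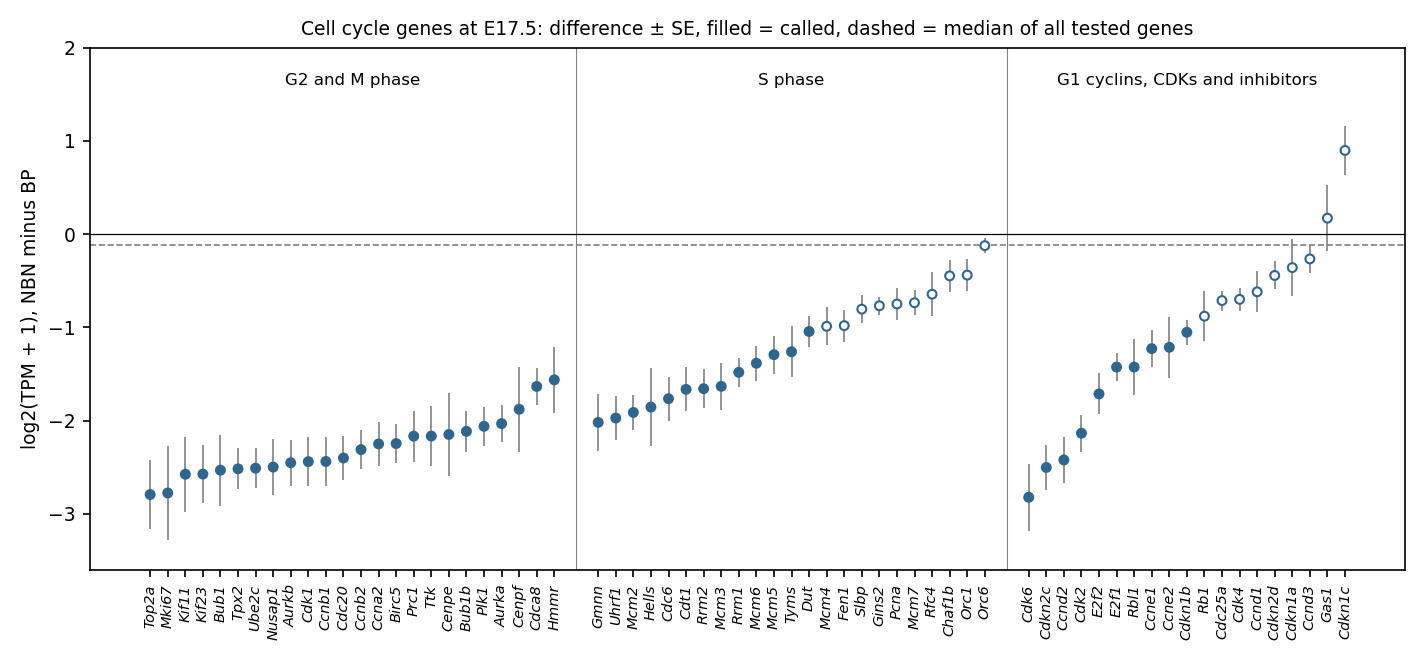
NBN minus BP difference on the log2(TPM + 1) scale (vertical axis, bars show the SE) at E17.5 for each gene of the G2 and M, S and G1 lists, with filled points for genes called and a dashed line at the median of all tested genes (-0.12). All 24 G2 and M points are filled and lie below -1.5, and 13 of 23 S phase and 10 of 19 G1 points are filled.

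The promoters of 3 of these G2 and M genes are shown because the list moved as a whole, and that of Eomes is shown beside them as a progenitor gene outside the cycle. Each window runs from 250 bases before to 50 bases after the gene's start, 5′ to 3′ in the direction of transcription, from RefSeq on GRCm38.p6. Capitals mark CCAAT (or its reverse complement ATTGG), the NF-Y box, and TTTGAA (or TTCAAA), a core of the cell cycle homology region. The windows are Top2a at chr11:99024140-99024439 (minus strand), Kif11 at chr19:37376132-37376431 (plus), Ccnb2 at chr9:70421505-70421804 (minus) and Eomes at chr9:118477939-118478238 (plus).
Top2a: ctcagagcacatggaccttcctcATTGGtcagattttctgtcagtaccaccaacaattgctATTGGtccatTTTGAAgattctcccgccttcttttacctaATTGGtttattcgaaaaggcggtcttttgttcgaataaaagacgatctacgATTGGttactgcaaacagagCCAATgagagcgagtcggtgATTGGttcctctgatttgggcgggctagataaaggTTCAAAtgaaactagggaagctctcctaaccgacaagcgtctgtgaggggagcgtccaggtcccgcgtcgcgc
Kif11: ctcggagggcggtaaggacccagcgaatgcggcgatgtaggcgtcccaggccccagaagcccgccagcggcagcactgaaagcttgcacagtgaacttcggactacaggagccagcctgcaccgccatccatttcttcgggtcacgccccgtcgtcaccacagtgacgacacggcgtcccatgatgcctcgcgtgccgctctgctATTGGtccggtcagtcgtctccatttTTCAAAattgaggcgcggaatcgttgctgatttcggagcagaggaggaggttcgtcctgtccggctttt
Ccnb2: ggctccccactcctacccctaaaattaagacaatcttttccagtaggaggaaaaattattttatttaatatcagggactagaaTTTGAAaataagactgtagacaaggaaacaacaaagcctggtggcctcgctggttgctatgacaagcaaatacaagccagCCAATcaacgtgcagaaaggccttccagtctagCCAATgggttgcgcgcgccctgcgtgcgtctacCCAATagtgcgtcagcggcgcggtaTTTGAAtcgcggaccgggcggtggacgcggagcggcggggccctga
Eomes: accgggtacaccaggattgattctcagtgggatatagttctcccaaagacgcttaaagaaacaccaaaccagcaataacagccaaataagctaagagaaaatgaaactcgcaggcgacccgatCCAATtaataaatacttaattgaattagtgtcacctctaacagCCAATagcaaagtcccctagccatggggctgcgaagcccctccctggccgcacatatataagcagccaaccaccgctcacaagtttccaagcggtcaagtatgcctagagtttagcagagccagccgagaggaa
These windows hold 6, 1, 3 and 2 CCAAT boxes and 2, 1, 2 and 0 TTTGAA elements, with no overlap between the motifs. Both strands were searched. CCAAT stood in 20 of 22 promoters of the G2 and M list (90.9%), 14 of 23 of the S phase list (60.9%) and 13 of 21 of the basal progenitor list (61.9%), against 37.4% of all 32851 RefSeq promoters and 37.5% of the 13942 promoters of tested genes. These promoters belong to 21, 20 and 13 genes of the lists, so that some genes have more than 1 window and others none. TTTGAA stood in 17 (77.3%), 2 (8.7%) and 1 (4.76%) of the same lists, against 17.9% of all and 12% of those of tested genes. A match is a description of these letters and not a site in use.

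Neuronal transcription factors and layer genes did not move as a block. Of 25 general neuronal factors 3 were called higher and 5 lower (median 0.17, but -0.14 without BP 2 and -0.04 without NBN 1). Neurod6 was at 1538, 972, 1007 and 1058 TPM in NBN and 1017, 797, 769 and 760.2 TPM in BP (0.44 ± 0.48, adjusted p = 0.484). Neurod2 was at 665, 636, 570.5 and 563 TPM in NBN and 445, 469.9, 460.0 and 412 TPM in BP (0.44 ± 0.39, adjusted p = 0.373). NBN 1 and BP 1 were high for Neurod6, whose groups overlapped, and the Neurod2 groups were separate but did not pass the test. Nr4a2 (1.99 ± 0.31) and Hivep2 (1.43 ± 0.32) rose with Mef2c. Of the lower ones, Myt1 was at 20.2, 23.2, 15.7 and 22.1 TPM in NBN and 97.9, 90.8, 93.4 and 104 TPM in BP (-2.21 ± 0.21, adjusted p = 7.5e-12), and Scrt2 gave -1.65 ± 0.21. St18 (-1.81 ± 0.40), Nfia (-1.41 ± 0.39) and Nfib (-1.29 ± 0.47) were lower too, with overlapping groups. The number of the 25 factors called lower was 4 without BP 1, BP 3, BP 4, NBN 2 or NBN 3. It was 6 without BP 2 or NBN 1.

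Of 18 deep-layer genes 8 were called higher and 1 lower (median 0.93). Ldb2, a LIM domain co-factor of subcerebral neurons, was at 114, 66.2, 87.5 and 92.6 TPM in NBN and 5.78, 6.91, 7.56 and 4.87 TPM in BP (3.63 ± 0.34, adjusted p = 2.8e-12). Hs3st4, a heparan sulfate enzyme, was at 37.4, 20.1, 47.8 and 34.6 TPM in NBN and 2.73, 3.16, 2.52 and 6.50 TPM in BP (2.94 ± 0.34, adjusted p = 1.15e-09). Neither overlapped, and BP 4 was the highest BP library for Hs3st4. The fate factors of deep layers were not called. Tbr1 was at 305, 218, 189.9 and 204 TPM in NBN and 291, 233, 217 and 179.7 TPM in BP (-0.01 ± 0.34, adjusted p = 0.987), with a difference that was 0.13 under median-of-ratios scaling. Bcl11b gave 0.36 ± 0.38, Fezf2 0.44 ± 0.33 and Sox5 0.82 ± 0.32. The 1 lower gene was the calmodulin-binding Pcp4, at 26.1, 32.5, 29.7 and 48.4 TPM in NBN and 150.0, 136, 146 and 98.4 TPM in BP (-1.94 ± 0.40, adjusted p = 9.67e-05).

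Of 18 upper-layer genes 5 were called higher and 3 lower (median 0.50). The number lower was 2 without BP 1 or NBN 2. Dtx4, a member of the deltex family, was at 100.2, 64.7, 119 and 68.7 TPM in NBN and 6.18, 7.23, 7.33 and 9.77 TPM in BP (3.34 ± 0.22, adjusted p = 8.53e-17). Every NBN library lay well above every BP library for Dtx4. Kit ligand, Kitl, gave 2.10 ± 0.51. Lower were the netrin receptor Unc5d, at 17.0, 9.50, 10.4 and 13.0 TPM in NBN and 136, 40.5, 135.2 and 98.5 TPM in BP (-2.83 ± 0.38, adjusted p = 4.15e-08), with Lhx2 (-1.39 ± 0.20) and Pou3f2 (-1.14 ± 0.36). The layer factors Cux1 (0.43 ± 0.11), Cux2 (-0.04 ± 0.21) and Rorb (0.77 ± 0.30) were not called.

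Of 26 cytoskeleton and growth cone genes, 11 were called higher and 0 lower (median 0.97), and 15 were called higher under median-of-ratios scaling. The neurofilament gene Nefl was at 39.4, 29.7, 41.9 and 46.3 TPM in NBN and 0.800, 1.48, 1.14 and 12.1 TPM in BP (3.57 ± 0.50, adjusted p = 8.29e-08). Nefm was at 90.7, 52.1, 65.3 and 76.7 TPM in NBN and 7.996, 5.50, 6.48 and 19.6 TPM in BP (2.86 ± 0.38, adjusted p = 2.17e-08). The axonal microtubule protein tau, Mapt, was at 1909, 1379.8, 1675 and 1385 TPM in NBN and 386, 402, 361 and 442 TPM in BP (1.98 ± 0.39, adjusted p = 3.6e-05). BP 4 was the highest BP library for all 3, by far for Nefl, and no BP library reached NBN. The growth cone protein Gap43 gave 1.45 ± 0.29 and the tubulin regulator Stmn2 1.78 ± 0.33. Neuronal tubulin, Tubb3, was abundant in both groups, at 3830.1, 3803, 4318 and 3504 TPM in NBN and 2012, 2264, 1922 and 1619 TPM in BP (0.99 ± 0.22, adjusted p = 0.000272), where NSC averaged 2911 TPM. Tubb3 lay just under the threshold and was called without BP 1 (1.01), BP 2 (1.06) or NBN 4 (1.03). Its NSC level does not stand for stem cells alone, as the NSC libraries also averaged 157 TPM of Sla and 112 TPM of Mef2c. The migration protein Dcx gave -0.04 ± 0.35, and its groups overlapped.

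Of 17 genes of radial migration and the reelin response, 3 were called higher and 3 lower (median 0.16). The reelin adaptor Dab1 was at 338, 191, 233 and 232 TPM in NBN and 24.6, 21.3, 31.6 and 28.7 TPM in BP (3.16 ± 0.24, adjusted p = 7.42e-15). The reelin receptor Vldlr was at 50.3, 26.0, 34.2 and 35.6 TPM in NBN and 14.2, 8.08, 13.3 and 17.99 TPM in BP (1.39 ± 0.27, adjusted p = 3.16e-05). The other receptor, Lrp8, was lower, at 189, 121, 112 and 123 TPM in NBN and 451, 225, 376 and 384 TPM in BP (-1.38 ± 0.22, adjusted p = 1.62e-06). The receptors thus stood on opposite sides, each without overlap. The Cdk5 activator Cdk5r2 gave 1.42 ± 0.37, Rnd3 -1.73 ± 0.28 and Reln itself 0.35 ± 0.36.

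Of 35 axon guidance genes 4 were called higher and 5 lower (median -0.22), against 5.5% and 6.8% of all genes. Without BP 2 the number lower was 8. The ephrin Efna3 was at 81.4, 59.9, 66.3 and 59.9 TPM in NBN and 18.6, 17.2, 13.3 and 14.0 TPM in BP (2.02 ± 0.31, adjusted p = 4.93e-07). Its receptor family member Epha4 was at 63.6, 40.3, 52.5 and 49.9 TPM in NBN and 240.2, 138, 236 and 228 TPM in BP (-1.99 ± 0.24, adjusted p = 1.65e-09). The semaphorin Sema3c was at 54.0, 30.6, 37.5 and 49.8 TPM in NBN and 324, 121, 339.6 and 261 TPM in BP (-2.51 ± 0.38, adjusted p = 4.88e-07). No groups overlapped here, and BP 2 was the lowest BP library for Epha4 and Sema3c. Robo1 (0.91 ± 0.31), Robo2 (0.26 ± 0.30) and Nrp1 (-0.95 ± 0.30) were not called.

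Of 26 adhesion genes 9 were called higher and 1 lower (median 0.42). Without BP 2 or NBN 1, 6 were called higher and 2 lower, and the other omissions left 9 higher. T-cadherin, Cdh13, was at 110.3, 72.2, 77.2 and 84.1 TPM in NBN and 9.41, 9.26, 11.3 and 10.003 TPM in BP (2.97 ± 0.38, adjusted p = 8.8e-09). Contactin 1, Cntn1, was at 32.5, 10.3, 23.7 and 25.8 TPM in NBN and 2.26, 1.14, 2.12 and 9.65 TPM in BP (2.52 ± 0.34, adjusted p = 2.85e-08). Neurotrimin, Ntm, gave 2.38 ± 0.34. BP 4 was high for Cntn1 but below every NBN library. The lower gene was Negr1, at 42.6, 13.8, 25.8 and 33.6 TPM in NBN and 123, 41.0, 106 and 85.4 TPM in BP (-1.58 ± 0.34, adjusted p = 0.000142), where NBN 1 lay above BP 2. N-cadherin, Cdh2, gave 0.03 ± 0.16.

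**Figure D4:**
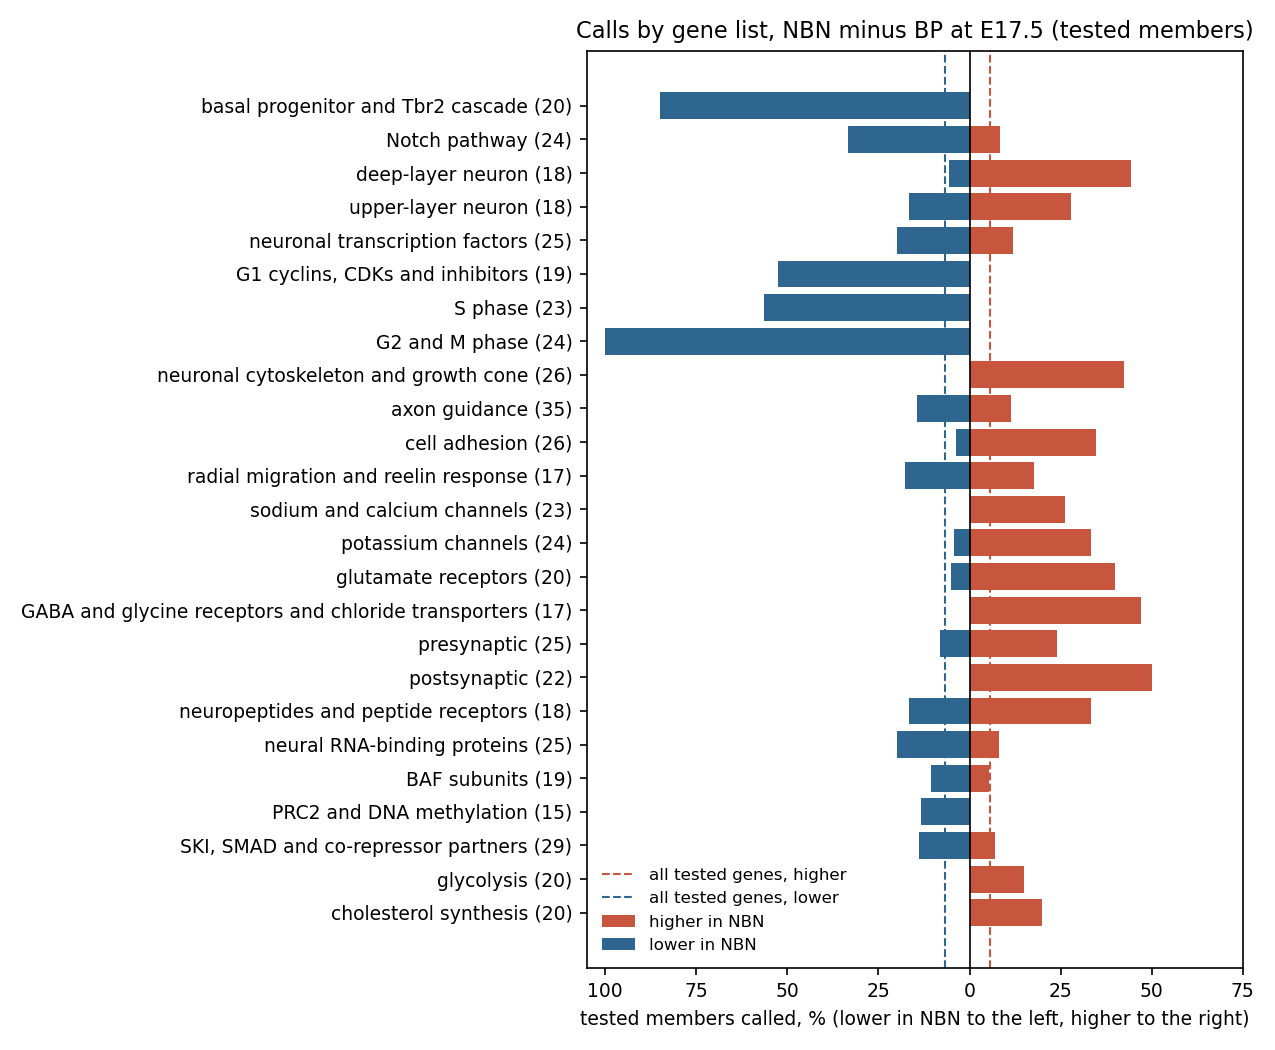
Share of tested genes (in percent, number tested in brackets) called higher (bars to the right) and lower (bars to the left) in newborn neurons than in basal progenitors at E17.5 for each gene list, with dashed lines at the shares of all tested genes (5.5% and 6.8%). The G2 and M list has 24 of 24 lower and the basal progenitor list 17 of 20 lower, while cytoskeleton, receptor and synapse lists have most of their calls on the higher side.

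Most ion channel genes were not called. Of 23 sodium and calcium channel genes 6 were called higher and 0 lower (median 0.56), among them Scn2a1 (1.94 ± 0.36), the sodium channel beta subunit Scn3b (1.56 ± 0.29) and Cacna1e (1.53 ± 0.38). Of 24 potassium channel genes 8 were called higher and 1 lower (median 0.20). Many are at low TPM, and with a pseudocount of 5 in place of 1, 3 were called higher and 0 lower. Of the 12 that passed a filter for a mean of at least 5 TPM, 3 were called higher and 0 lower. The inward rectifier Kcnj2 was at 10.001, 4.37, 7.68 and 6.36 TPM in NBN and 0.358, 0.377, 0.656 and 1.00 TPM in BP (2.31 ± 0.24, adjusted p = 3.2e-11). The M-current channel Kcnq5 was at 19.3, 8.58, 14.6 and 13.8 TPM in NBN and 1.88, 1.21, 2.05 and 3.15 TPM in BP (2.28 ± 0.25, adjusted p = 2.63e-10). Both were lowest in NBN 2 and highest in NBN 1, and neither overlapped. The fast-spiking channel Kcnc2 was lower, at 1.68, 1.17, 0.812 and 1.10 TPM in NBN and 4.88, 2.98, 5.67 and 4.34 TPM in BP (-1.31 ± 0.20, adjusted p = 6.53e-07).

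Of 20 glutamate receptor genes 8 were called higher and 1 lower (median 0.71). The kainate subunit Grik3 was at 38.6, 17.4, 29.1 and 29.7 TPM in NBN and 2.84, 2.56, 2.02 and 6.11 TPM in BP (2.79 ± 0.39, adjusted p = 6.27e-08). The NMDA subunit Grin2b was at 68.3, 24.5, 43.6 and 34.2 TPM in NBN and 8.47, 3.44, 8.02 and 14.53 TPM in BP (2.22 ± 0.42, adjusted p = 2.24e-05). The metabotropic receptor Grm5 gave 2.74 ± 0.39. NBN 2 was the lowest NBN library for each. The AMPA subunits Gria1 (0.44 ± 0.32), Gria2 (0.23 ± 0.51) and Gria3 (-0.05 ± 0.39) were not called, and Gria4 was (1.10 ± 0.34). The lower gene, Grik2 (-1.06 ± 0.31), had overlapping groups and was not called without BP 1 (-0.94), BP 4 (-0.85), NBN 2 (-0.89) or NBN 3 (-0.99).

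Of 17 genes for GABA and glycine receptors and chloride transporters, 8 were called higher and 0 lower (median 1.03). The number higher ran from 6 without BP 2 or NBN 1 to 9 without BP 4 or NBN 3. The subunit Gabra5 was at 21.6, 9.01, 19.6 and 14.7 TPM in NBN and 3.09, 1.83, 1.57 and 2.07 TPM in BP (2.41 ± 0.34, adjusted p = 1.03e-07). The glycine receptor subunit Glra2 was at 53.4, 35.5, 39.3 and 54.2 TPM in NBN and 8.40, 9.60, 8.82 and 12.1 TPM in BP (2.11 ± 0.36, adjusted p = 4.37e-06). Neither gene's groups overlapped. The chloride exporter Slc12a5 gave 1.03 ± 0.44 (adjusted p = 0.052) and the importer Slc12a2 gave -0.72 ± 0.26, and neither was called.

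Synapse genes were called higher on the postsynaptic side in 11 of 22 cases with 0 lower (median 0.96), and on the presynaptic side in 6 of 25 with 2 lower (median 0.67). The postsynaptic number higher ran from 8 without BP 2 to 12 without BP 4. The kinase subunit Camk2b was at 506, 405, 562 and 389 TPM in NBN and 82.6, 92.4, 91.5 and 111 TPM in BP (2.28 ± 0.40, adjusted p = 7.6e-06). The scaffold Dlg2 was at 94.2, 43.7, 79.3 and 64.1 TPM in NBN and 13.47, 11.0, 14.2 and 19.4 TPM in BP (2.17 ± 0.31, adjusted p = 1.12e-07). The calcium sensor of release, Syt1, was at 142, 62.9, 106 and 95.2 TPM in NBN and 23.6, 16.1, 21.1 and 32.8 TPM in BP (2.05 ± 0.38, adjusted p = 1.58e-05). Each was higher in every NBN library. The vesicular glutamate transporter Slc17a6 was lower, at 32.7, 23.4, 23.7 and 31.8 TPM in NBN and 104, 56.9, 109.7 and 110.1 TPM in BP (-1.70 ± 0.31, adjusted p = 1.42e-05). Its relative Slc17a7 was at 30.7, 23.7, 29.1 and 26.0 TPM in NBN and 15.2, 15.3, 10.4 and 16.0 TPM in BP (0.91 ± 0.37, adjusted p = 0.045), short of a difference of 1. Synapsin genes also stood on opposite sides, with Syn1 at 1.09 ± 0.22 and Syn2 at -1.56 ± 0.25.

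Among 18 neuropeptide and peptide receptor genes 6 were called higher and 3 lower (median 0.73). Besides Npy and Ntsr1, cholecystokinin, Cck, was at 59.6, 42.9, 64.1 and 46.4 TPM in NBN and 10.6, 14.96, 11.6 and 11.1 TPM in BP (2.05 ± 0.43, adjusted p = 0.000128), and the receptor Npy1r gave 1.93 ± 0.27. The somatostatin receptors differed in direction, with Sstr1 at 1.69 ± 0.28 against Sstr2 at -3.61 ± 0.32. The peptide Nts, the ligand of Ntsr1, was at 47.3, 7.94, 48.2 and 32.8 TPM in NBN and 24.1, 28.2, 13.2 and 9.92 TPM in BP (0.66 ± 0.77, adjusted p = 0.51), and its groups overlapped.

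Of 25 RNA-binding proteins 2 were called higher and 5 lower (median -0.32), against 5.5% and 6.8% of all genes. The number higher was 0 without NBN 1 and 1 without BP 1, BP 2 or BP 3. The splicing repressor Ptbp1 was at 62.4, 72.0, 66.6 and 63.4 TPM in NBN and 179, 178, 179 and 170.4 TPM in BP (-1.41 ± 0.15, adjusted p = 1.01e-10). Elavl2 was at 121, 57.2, 84.8 and 108 TPM in NBN and 319.9, 154, 311 and 307 TPM in BP (-1.54 ± 0.28, adjusted p = 9.31e-06), and Elavl4 gave -1.38 ± 0.32. Neither Ptbp1 nor Elavl2 overlapped, and BP 2 was by far the lowest BP library for Elavl2. Of 19 BAF chromatin remodelling subunits 1 was called higher (2 without BP 2, NBN 1 or NBN 4) and 2 lower, shares near those of all genes. The neuronal subunit Dpf1 was at 320.3, 322, 318 and 278 TPM in NBN and 93.0, 108, 86.7 and 86.6 TPM in BP (1.72 ± 0.21, adjusted p = 2.37e-09), and the progenitor subunits Actl6a (-1.14 ± 0.12) and Ss18 (-1.31 ± 0.13) were lower. The neuronal partners Actl6b (1.00 ± 0.31) and Ss18l1 (0.36 ± 0.16) had every NBN library above every BP library without being called, the first just under a difference of 1. Of 15 genes of Polycomb repressive complex PRC2 and DNA methylation 0 were called higher and 2 lower (5 without BP 2), the histone methyltransferase Ezh2 (-1.15 ± 0.22) and Uhrf1 (-1.97 ± 0.24).

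Ski was at 53.1, 43.4, 39.0 and 36.7 TPM in NBN and 27.5, 27.1, 29.1 and 33.3 TPM in BP (0.53 ± 0.14, adjusted p = 0.0019). All NBN libraries were above all BP libraries, but the difference fell short of 1. Since the labels do not say which exons were removed, a level per gene does not check the knock-out. Of 29 genes for SKI, SMAD and co-repressor partners 2 were called higher and 4 lower, against 5.5% and 6.8% of all genes. Their median was -0.19, against -0.12 for all genes. Smad3, a signal transducer of TGF-beta, was at 24.2, 14.9, 23.9 and 14.6 TPM in NBN and 4.97, 3.95, 3.54 and 4.78 TPM in BP (1.91 ± 0.17, adjusted p = 1.34e-12). The ligand Tgfb2 was at 3.46, 2.36, 3.70 and 3.78 TPM in NBN and 18.3, 8.47, 16.4 and 16.3 TPM in BP (-1.84 ± 0.27, adjusted p = 3.17e-07). Hdac1, a histone deacetylase, was at 24.3, 28.2, 25.1 and 27.2 TPM in NBN and 60.9, 68.6, 64.4 and 58.8 TPM in BP (-1.24 ± 0.12, adjusted p = 4.45e-12). These groups did not overlap. The paralog Hdac2 gave -0.12 ± 0.13 and the relative of Ski, Skil, gave -0.39 ± 0.27.

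In metabolism, 4 of 20 cholesterol synthesis genes were called higher and 0 lower (median 0.67), and 2 were called higher without BP 1 or NBN 3. The early enzyme Hmgcs1 was at 581, 356, 522 and 439 TPM in NBN and 189, 177, 195 and 219 TPM in BP (1.26 ± 0.17, adjusted p = 7.19e-08). Idi1 gave 1.16 ± 0.22 and Fdps 1.06 ± 0.15, the second not called without BP 1 (0.96) or NBN 3 (0.95). Of 20 glycolysis genes 3 were called higher and 0 lower (median 0.18), namely Hk1 (1.06 ± 0.16), the neuronal enolase Eno2 (1.24 ± 0.22) and Pfkp (1.35 ± 0.32).

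Markers of glia and interneurons gave mixed calls. Of 14 astrocyte genes 3 were called higher and 1 lower. The higher ones depended on single libraries, since Apoe (1.25 ± 0.40) was 0.94 without NBN 4, Sparcl1 (1.12 ± 0.29) was 0.90 to 0.95 without BP 2, BP 4 or NBN 1, and Mlc1 (1.04 ± 0.26) was 0.93 to 0.99 without BP 1, BP 2, NBN 3 or NBN 4. Apoe is also made by microglia and was at 47.5, 105, 65.5 and 166 TPM in NBN and 42.0, 28.4, 51.5 and 25.7 TPM in BP. The glutamate transporter Slc1a2 was lower (-1.81 ± 0.37). Of 12 oligodendrocyte lineage genes Olig1 was higher, at 5.50, 6.68, 13.8 and 19.1 TPM in NBN and 0.945, 1.44, 2.42 and 2.57 TPM in BP (2.00 ± 0.36, adjusted p = 1.23e-05). Olig2 (1.09 ± 0.39) was not called without BP 2 (adjusted p = 0.0508), NBN 3 (0.99) or NBN 4 (0.97), and Bcan (-1.02 ± 0.33) was lower but not called without BP 1 (-0.94), NBN 1 (-0.83) or NBN 2 (-0.89). Of 19 interneuron genes 1 was called higher, Dlx1 (1.25 ± 0.52, adjusted p = 0.0472), a call lost without any 1 of BP 1 to 4, NBN 1 or NBN 4 (adjusted p 0.0541 to 0.12). Calb2, the calcium-binding protein calretinin, was lower (-1.16 ± 0.41). Of 18 immediate early and dissociation genes 1 was called lower, the antiproliferative gene Btg2 (-2.11 ± 0.22). The number lower was 2 without BP 1 and 6 with library weights, whose estimation did not fully converge. The median of that list was -0.24, against 0.20 without BP 3. The heat shock gene Hspa1a was at 2.15, 1.79, 1.92 and 3.66 TPM in NBN and 1.24, 1.33, 84.3 and 2.76 TPM in BP, high in BP 3 alone.

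The same comparison could be made in other libraries on E15.5, E16.5 and E18.5, with 3 NBN and 3 BP libraries on each day. It gave 1044 genes higher (6.85%) and 703 lower (4.62%) in NBN at E15.5, 796 (5.23%) and 651 (4.27%) at E16.5, and 968 (6.36%) and 944 (6.2%) at E18.5. Of the 838 genes higher at E17.5, 643, 649 and 741 were also called higher on those days, which is 76.7%, 77.4% and 88.4% of the E17.5 list and 61.6%, 81.5% and 76.5% of the lists of those days. Of the 1035 lower, 573, 614 and 845 were shared, which is 55.4%, 59.3% and 81.6% of the E17.5 list and 81.5%, 94.3% and 89.5% of the others. On all 4 days 531 genes were called higher and 485 lower, and 24 and 147 were called at E17.5 only.

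The difference at E17.5 was also tested against the mean difference of the other 3 days. Of 15231 genes 0 had a higher and 1 (0.00657%) a lower difference with limma, while 555 (3.64%) had an unadjusted p under 0.05. The 1 gene was Rgs16, a regulator of G protein signalling, at 10.7, 7.52, 12.1 and 11.8 TPM in NBN and 23.2, 23.3, 24.6 and 17.8 TPM in BP at E17.5. Its groups did not overlap. The NBN minus BP difference of Rgs16 was 1.54 at E15.5, 0.18 at E16.5, -1.02 at E17.5 and -1.43 at E18.5, and the E17.5 value minus the mean of the others was -1.12 (adjusted p = 0.00735). That call was lost without NBN 2 or BP 3, without both NBN 1 and BP 1, under quantile and median-of-ratios scaling, and against E16.5 and E18.5 alone. The E17.5 difference itself fell short of 1 in size without BP 1 (-0.997), BP 2 (-0.996), BP 3 (-0.97) or NBN 2 (-0.88) and under quantile (-0.82) and median-of-ratios scaling (-0.89).

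The differences of several genes moved in 1 direction over the 4 days. These genes were chosen for that course, which was not tested as a trend. The Eomes difference was -2.80 at E15.5, -3.72 at E16.5, -4.86 at E17.5 and -5.47 at E18.5. For Neurog2 it was -1.58, -2.29, -3.04 and -3.08 on the same days. The kainate receptor gene Grik3 ran the other way, with 4.78, 3.60, 2.79 and 2.23. For the microglia gene C1qa the difference was 0.28 at E15.5, 1.60 at E16.5, 2.95 at E17.5 and 4.06 at E18.5.

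**Figure D5:**
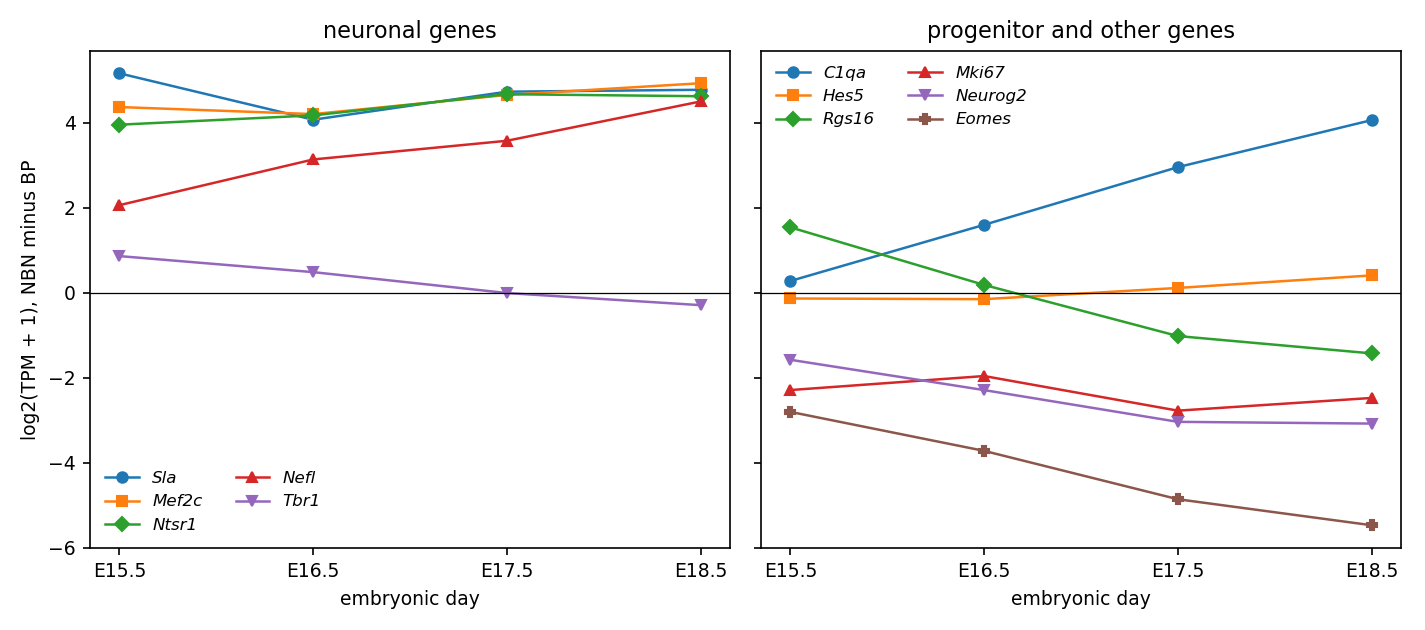
NBN minus BP difference on the log2(TPM + 1) scale (vertical axis) at E15.5, E16.5, E17.5 and E18.5 for selected genes, each point a difference of group means from limma, drawn without error bars. Eomes lies at -2.80, -3.72, -4.86 and -5.47, and Mef2c lies above 4 on all 4 days.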

How the data were processed

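Libraries were made from papain-dissociated, sorted cells with TRIzol and TruSeq RNA v2 and read as single 50-base reads, per the labels' protocols. The authors' deposited values are TPM per gene, scaled to the same total in each library. Kallisto 0.43.0 and the builds GRCm38.p2 and mm10 are named in the submitters' processing notes. From these values, log2(TPM + 1) was computed for the 15231 of 23078 genes that reached 1 TPM in 3 or more libraries, and fitted with limma 3.58.1 in R 4.3.3. All 63 libraries entered with 19 group means (44 residual degrees of freedom), so that groups share the estimate of spread, with a trend in the variance and Benjamini-Hochberg adjustment over all genes tested. The fit was tested on simulated data. Depth is unknown, so no interval for counting error can be given.

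The cells compared, the 37 gene lists and the rules were chosen with earlier results of these data known, and 4 list genes found no row in the table. The genes described are the 10 with the largest difference in each direction (mean of at least 10 TPM in the higher group, groups not overlapping), up to 3 called members of each list and the largest opposite one, up to 5 in each direction against the other days, and a fixed set of 15 genes. Further list members were named after their values were seen. Some genes that these rules name are not reported here. Promoters are RefSeq's. Alternatives covered the pseudocount, filter, scaling, library weights, a Y-linked covariate, a replicate block and leaving out each library.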

Additional observations from a re-analysis of the deposited data

Results flagged for a closer look

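In groups of 4 libraries, Dixon's criterion set a single library apart from the other 3 for 24 of the 274 groups checked (8.76%). The criterion flags about 1 in 20 groups of independent, normally distributed values. TPM values of genes that vary together need not follow that rate, so the share was not tested against chance. NBN 4 was high for Pax6 (31.61 TPM), Nhlh1 (8.221 TPM), Neurod4 (2.034 TPM), the Cajal-Retzius marker Barhl2 (5.084 TPM) and Ccnd2 (38 TPM) and low for Dpf1 (278.2 TPM). Its summed levels of Cajal-Retzius markers (285.7 TPM) and choroid plexus markers (113.9 TPM) were also above the other NBN libraries. NBN 1 stood high for Neurod6 (1538 TPM) and Tac2 (0.2225 TPM), and NBN 3 for Slco1c1 (4.83 TPM).

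Among BP libraries, BP 4 was high for the neuronal genes Nefl (12.09 TPM), Cntn1 (9.652 TPM) and Hs3st4 (6.502 TPM) and low for Cxcl12 (39.43 TPM) and Ptbp1 (170.4 TPM). BP 2 was low for Elavl2 (154.2 TPM), Epha4 (137.9 TPM) and Slc17a6 (56.94 TPM) and high for Sla (13.21 TPM). BP 1 was high for Neurod6 (1017 TPM) and C1qa (2.331 TPM). BP 3 was low for Npy (2.38 TPM), and its sum of endothelial and pericyte markers (175.9 TPM) lay above the other BP libraries.

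The NBN minus BP difference of Rgs16 at E17.5 differed from the mean of the other days by a test of that difference itself, with -1.118 on the log2 scale. The call was lost without NBN 2 or BP 3, without both NBN 1 and BP 1, under quantile and median-of-ratios scaling, and against E16.5 and E18.5 only.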

How the results depend on the processing

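Of the 119 called genes among the 128 chosen by rule, 17 lost the call under at least 1 alternative. The other 102 kept it under every alternative in which they were tested. The filter for a mean of at least 5 TPM tested only 122 of the 128. A pseudocount of 5 gave 467 genes higher and 548 lower in NBN at E17.5, and 2 with a lower difference than on the other days, and a pseudocount of 0.1 gave 1151 and 1513 at E17.5. Against the other days, 0 genes had a lower difference under quantile scaling, median-of-ratios scaling, against E16.5 and E18.5 only and, in an alternative chosen after seeing the data, without NBN 1 and BP 1 (759 and 1084 calls at E17.5). Library weights gave 1 gene higher and 63 lower against the other days, and 840 and 1275 calls at E17.5, but the estimation of the weights stopped before it had fully converged. The cause was not tested. Leaving out each library in turn gave 779 to 930 genes higher, 950 to 1321 lower and 0 to 1 with a lower difference than on the other days.

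The difference of Tbr1, which was not called, turned positive under median-of-ratios scaling (0.13) and with transcript length as a covariate, chosen after seeing the data (0.030), and ran over -0.15 to 0.11 when each library was left out in turn. Over the same omissions Xist ran over -2.56 to 1.04, Ddx3y over -1.72 to 0.043 and Hes5 over -0.0051 to 0.33, none called.

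Libraries of the same number correlated by 0.60, 0.44, 0.15 and -0.15 in their deviations from the group means, and not every one correlated best with its own number, so the numbers were not taken to pair the samples. With the replicate block 838 genes were higher and 1038 lower, and 0 and 1 against the other days. The 8 libraries alone gave 832 and 1008, and with the replicate block 840 and 1022. In that blocked fit of the 8 libraries 4 of 10 erythroid and 4 of 19 interneuron genes were called higher.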
